A study of Mus musculus with 12 samples.

Results

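Inflammasomes are protein assemblies of the cytosol. A sensor that has met a danger or microbial signal can recruit the adaptor ASC (encoded by Pycard), which gathers and activates caspase-1. Caspase-1 cleaves the precursors of IL-1β and IL-18 and the pore-forming protein gasdermin D, and caspase-11 (encoded by Casp4 in the mouse) cleaves gasdermin D when it binds bacterial lipopolysaccharide. In macrophages the level of NLRP3 is known to be raised by NF-κB signalling, a step called priming, before any assembly takes place. The data below are transcript levels and hold no measure of assembly, cleavage or cell death.

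The 10 genes examined were 5 sensors (Nlrp3, Nlrp1b, Aim2, Naip2 and Naip5), the NLRP3 partner kinase Nek7, the adaptor Pycard, the caspases Casp1 and Casp4, and the pore former Gsdmd. They were chosen by symbol among 24421 rows of a gene count table. All 10 were found, and all 10 passed the filter on low counts that left 11468 genes for testing.

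The cells were macrophages grown from bone marrow (BMDMs) of wild-type C57BL/6 mice, and total RNA was sequenced in bulk. M-CSF (100 ng/mL) was present in all cultures through 5 days, and the medium was renewed on day 3. Cells then spent 4 hours with I-BET151 (iBET, a blocker of the acetyl-lysine pockets of BET proteins) at 5.0 µM or with DMSO (5% in the labels), together with ovalbumin (Ova) or ovalbumin bound by IgG as an immune complex (IC). What share of DMSO the iBET cultures held is not given in the labels. In the study's methods iBET was diluted from a stock in DMSO, which was also the control solvent. There, 5% DMSO is named only for the mixture injected into mice. The share in the cultures is therefore uncertain, and whether the solvent was matched is not known. The labels have drug and stimulus added together whereas the study's methods place the drug earlier, so the order is uncertain. The 4 groups (DMSO with Ova, DMSO with IC, iBET with Ova, iBET with IC) had 3 libraries each, since every one of mice A, B and C contributed to all 4. No culture was left without ovalbumin, so the Ova groups were the reference for IC.

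Libraries held 7.55 M to 17.4 M counts. In 11 of the 12 the ribosomal precursor Rn45s took 1.41% to 7.83%, but for mouse A in DMSO Ova that share was 77.4%, leaving 1.77 M other counts and 979 on the 10 genes. For the 10 genes, values of comparisons with DMSO Ova are therefore also given without that thin library, and for other genes where it changes a call. All 8 macrophage markers examined (Csf1r, Adgre1, Mertk, Cd68, Itgam, Lyz2, Fcgr1 and C1qa) were detected, with a summed level of 6216 to 8318 CPM per library (CPM is the count scaled to the TMM-adjusted library size). Summed neutrophil markers reached 35.1 CPM at most, T cell markers 4.54, stromal 1.54 and dendritic cell markers 1.49. B cell markers reached 0.160 CPM with Pax5 at 0, erythroid markers 0.514 with 4 of 5 at 0, and all 4 mast cell or basophil markers were at 0. The part of other cell types in the results was not tested.

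The main feature of the data was that the 10 genes moved in different directions under iBET. Nlrp3 and Nlrp1b transcripts fell by 2.94- to 4.23-fold, Gsdmd fell less, and Naip2 and Naip5, which sense proteins of the bacterial secretion apparatus and flagellum, rose. With Ova, 6 of the 10 passed the test (4 lower, 2 higher), where 31.3% of all genes did (14.2% lower, 17.1% higher). With IC, 7 passed (5 lower, 2 higher), where 34.8% of all genes did (15.8% lower, 19.0% higher). The median absolute log2 fold change of the 10 was 0.53 with Ova and 0.71 with IC, beside 0.35 and 0.37 over all genes tested, and the signed medians were -0.39 and -0.36 beside 0.02 and -0.0037 over all genes. IC itself gave few calls among them. In DMSO none passed, where 1.22% of all genes did (0.732% higher, 0.488% lower). In iBET 1 (Nlrp3) passed, where 0.349% did (0.314% higher, 0.0349% lower). With mouse as a block in the fit, 2 were called in DMSO (Nlrp3 and Casp4), where 315 of 11468 genes were. In bulk RNA, fewer cells of a type and less RNA per cell cannot be told apart. The iBET comparison with Ova and the IC comparison in DMSO use the same 3 DMSO Ova libraries, and likewise each other pair of comparisons with a common group shares its libraries.

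**Figure D1:**
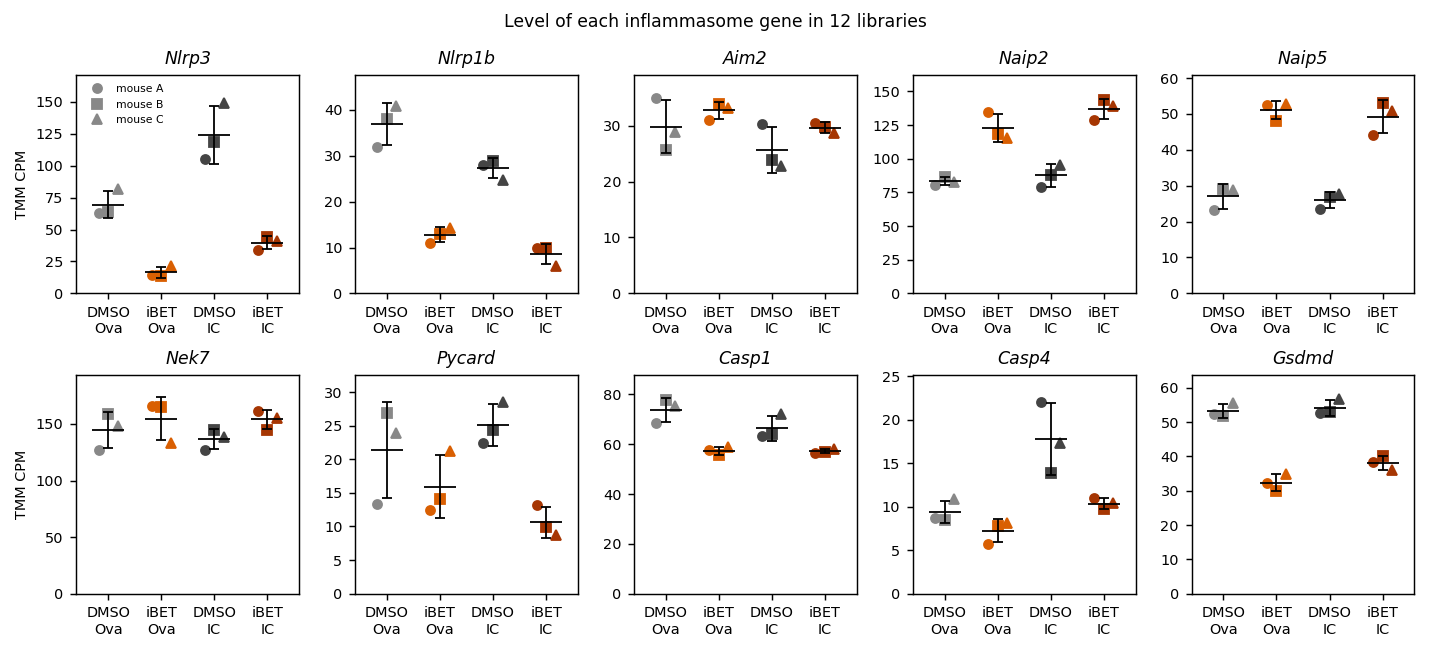
TMM CPM (vertical axes, from 0) of each of the 10 genes in the 12 libraries, with circles for mouse A, squares for mouse B and triangles for mouse C, and bars for the mean ± SD of 3 libraries. Nlrp3 and Nlrp1b were lower in all 6 iBET libraries than in all 6 DMSO libraries, and Naip2 and Naip5 were higher in all 6.

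Nlrp3 (chr11:59541568-59566956, plus strand, GRCm38) encodes the sensor of potassium efflux, crystals and other disturbances of the cell. In DMSO it stood at 62.7, 63.8 and 81.6 CPM in the Ova libraries of mice A, B and C, and at 105, 118 and 149 CPM with IC. In iBET it stood at 14.7, 13.5 and 21.4 CPM with Ova and at 33.9, 44.5 and 41.1 CPM with IC. The highest iBET library lay below the lowest DMSO library, and within each treatment every IC library lay above every Ova library. The iBET effect was a log2 fold change of -2.08 (SE 0.20, adjusted p 1.27e-05) with Ova and -1.64 (SE 0.19, adjusted p 4.34e-05) with IC, and it was lower in 3 of 3 mice in both. Without the thin library the first value was -2.19.

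IC raised the Nlrp3 level in iBET by 1.27 on the log2 scale (SE 0.19, adjusted p 0.0118), which is 2.41-fold and in the same direction in 3 of 3 mice. This call was lost in 3 of 12 fits that each left out 1 library (iBET Ova of mouse A, adjusted p 0.0819, iBET Ova of mouse B, 0.0935, and iBET IC of mouse B, 0.0752). It was also lost when mouse B was left out of all groups (log2 difference 1.05). In that fit no gene at all was called in this comparison. In DMSO the IC difference was 0.83 (SE 0.19, 3 of 3 mice), and just missed the threshold (adjusted p 0.0556). The fit blocked by mouse put it past the threshold (adjusted p 0.00265), and over the 26 alternatives the adjusted p ran from 5.17e-07 to 0.823. Without the thin library it was 0.75 (adjusted p 0.150). The difference between the IC effects in iBET and in DMSO was 0.44 (SE 0.27, adjusted p 1.00), so it was not shown that iBET altered the proportional IC response of Nlrp3. In absolute terms the IC libraries under iBET, at a mean of 39.8 CPM ± 5.41 (SD, n = 3), stayed below the Ova libraries in DMSO, at 69.3 ± 10.6 (n = 3), and the individual libraries did not overlap.

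The sequence before the annotated Nlrp3 start is shown because this gene had the largest change and the only IC call. It covers chr11:59541319-59541567 on the plus strand of GRCm38.p6, from RefSeq. It holds none of the 4 motifs searched on both strands, which were the interferon-response core (GAAA, any 2 bases, GAAA), the κB-like motif (GGGA, any base, TT, any base, CC), GAGGAAGT (the PU.1 type of ETS site) and CACGTG (the E-box), so no letters are in capitals. A further Nlrp3 window, before another RefSeq start (chr11:59542436-59542685), also holds none. That says only that these letters are not in these windows.

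Nlrp3: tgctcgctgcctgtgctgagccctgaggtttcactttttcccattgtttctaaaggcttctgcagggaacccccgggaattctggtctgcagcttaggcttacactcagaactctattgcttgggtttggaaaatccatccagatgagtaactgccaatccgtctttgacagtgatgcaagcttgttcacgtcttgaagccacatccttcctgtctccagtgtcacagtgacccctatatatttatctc

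Nlrp1b (chr11:71153102-71230733, minus strand) encodes a sensor of the NLRP1 family. It was at 31.8, 38.0 and 41.0 CPM in DMSO Ova and at 28.0, 28.9 and 24.8 CPM in DMSO IC. With iBET it was at 11.0, 12.9 and 14.3 CPM with Ova and at 9.82, 9.79 and 5.99 CPM with IC. All 6 iBET libraries lay below all 6 DMSO libraries. The iBET log2 fold changes were -1.55 (SE 0.18, adjusted p 6.08e-05) with Ova and -1.66 (SE 0.18, adjusted p 3.44e-05) with IC, and -1.68 with Ova without the thin library. The IC libraries lay below the Ova libraries in both treatments without passing the test: the log2 differences were -0.46 (SE 0.18, adjusted p 0.312) in DMSO and -0.56 (SE 0.19, adjusted p 0.425) in iBET. The DMSO value was -0.56 without the thin library (adjusted p 0.208).

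The 2 other genes of the Nlrp1 cluster lie beside it on the same strand, Nlrp1a at chr11:71092236-71144704 and the pseudogene Nlrp1c-ps at chr11:71242430-71285232. Both were also lower with iBET. Nlrp1a fell from 14.4 to 5.28 mean CPM with Ova (log2 fold change -1.52, adjusted p 0.000898) and from 12.95 to 5.39 with IC (-1.28, adjusted p 0.00203). Nlrp1c-ps fell from 12.7 to 4.47 with Ova (-1.51, adjusted p 4.54e-05) and from 10.4 to 3.45 with IC (-1.58, adjusted p 2.62e-05). Only 0.0476% of the 100-base windows of Nlrp1b transcripts occur in another gene, and that gene is Nlrp1a.

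The region before the Nlrp1b start, chr11:71230734-71230983 on the minus strand (GRCm38.p6, RefSeq), is shown for its single motif match, in capitals: GAGGAAGT, 96 bases before the start. Of the 9 genes with a promoter window in the RefSeq table, 3 held these letters on either strand (Nlrp1b, Aim2 and Pycard), beside 3.2% of 32851 promoter windows. Of these 3, Nlrp1b passed as lower with iBET under both stimuli, Pycard with IC, and Aim2 in neither.

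Nlrp1b: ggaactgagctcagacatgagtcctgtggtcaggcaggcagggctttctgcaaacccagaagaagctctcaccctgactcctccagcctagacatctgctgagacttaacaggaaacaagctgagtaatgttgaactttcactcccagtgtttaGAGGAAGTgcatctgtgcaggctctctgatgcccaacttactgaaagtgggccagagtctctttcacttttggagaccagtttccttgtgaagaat

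Naip2 and Naip5 encode receptors, of secretion-system rod protein and of flagellin respectively, that then join the NLRC4 sensor. They lie side by side on the minus strand, Naip2 at chr13:100144063-100202092 and Naip5 at chr13:100211739-100246323. Naip2 was at 80.6, 86.3 and 82.6 CPM in DMSO Ova and at 79.0, 88.0 and 95.6 CPM in DMSO IC. With iBET it was at 135, 118 and 115 CPM with Ova and at 129, 143 and 139 CPM with IC. Every iBET library lay above every DMSO library. The log2 fold changes were 0.56 (SE 0.10, adjusted p 0.00120) with Ova and 0.64 (SE 0.10, adjusted p 0.000361) with IC, that is 1.47- and 1.56-fold.

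Naip5 was at 23.1, 29.2 and 28.9 CPM in DMSO Ova and at 23.6, 26.7 and 27.7 CPM in DMSO IC. With iBET it was at 52.5, 48.1 and 52.7 CPM with Ova and at 44.1, 53.0 and 50.7 CPM with IC. The groups with and without iBET did not overlap. The log2 fold changes were 0.89 (SE 0.12, adjusted p 0.000160) with Ova and 0.92 (SE 0.12, adjusted p 9.18e-05) with IC. Without the thin library the Ova values were 0.49 for Naip2 and 0.76 for Naip5, and both still passed. IC differences were small for both genes, between -0.09 and 0.16 on the log2 scale, and none passed. Those in DMSO were 0.03 for Naip2 and -0.18 for Naip5 without the thin library.

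The Naip genes are near copies, so some of their reads cannot be placed for certain. Of the 100-base windows of Naip5 transcripts, 16.2% occur letter for letter in another gene (8.72% of all its windows in Naip3, 6.44% in Naip6 and 3.57% in Naip1). For Naip2 the share was 4.44%, with 1.38% in Naip5. How the counting treated reads with several alignments was not given in the sources used here. Naip6 (chr13:100281121-100317674, minus strand) rose from 36.3 to 51.8 mean CPM with iBET in Ova (log2 fold change 0.47, adjusted p 0.0478), a call lost in 11 of 12 fits without 1 library (up to 0.171, without the thin library), and was at 36.9 and 49.2 mean CPM without and with iBET in IC, which did not pass (adjusted p 0.0656, and 0.0298 when blocked by mouse). Naip1 stayed at or below 5.71 mean CPM in each group and did not pass.

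The regions before Naip2 and Naip5 are shown because both genes rose and their sequences are alike. They are chr13:100202123-100202372 and chr13:100247337-100247586, on the minus strand of GRCm38.p6, from RefSeq. Capitals mark the longest run common to both, 34 bases that begin 39 bases before the Naip2 start and 46 before the Naip5 start. Only these 2 of the 32851 promoter windows hold it. The best local alignment of the windows spanned 83 columns with 77 identical bases (92.8%). Neither window holds any of the 4 motifs.

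Naip2: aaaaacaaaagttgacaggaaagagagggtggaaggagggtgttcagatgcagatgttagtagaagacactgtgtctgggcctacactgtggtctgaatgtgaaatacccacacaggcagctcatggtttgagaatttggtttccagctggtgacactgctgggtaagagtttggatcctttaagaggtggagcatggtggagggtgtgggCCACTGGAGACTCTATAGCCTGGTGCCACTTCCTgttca
Naip5: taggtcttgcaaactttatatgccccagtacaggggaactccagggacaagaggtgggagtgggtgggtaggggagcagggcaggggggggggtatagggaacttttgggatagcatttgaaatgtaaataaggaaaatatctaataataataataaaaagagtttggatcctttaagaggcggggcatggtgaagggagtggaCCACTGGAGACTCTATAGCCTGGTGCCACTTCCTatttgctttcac

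Nlrc4 (chr17:74425438-74459142, minus strand), the sensor that both receptors need as partner, went the other way. It was at 6.68, 8.13 and 8.87 CPM in DMSO Ova, 2.39, 3.86 and 3.16 in iBET Ova, 7.49, 10.1 and 8.01 in DMSO IC, and 3.63, 4.26 and 4.19 in iBET IC. Its log2 fold changes with iBET were -1.39 (SE 0.22, adjusted p 0.000497) with Ova and -1.09 (SE 0.21, adjusted p 0.00144) with IC. Nlrc4 is described here for its place in this complex, and was chosen after its values were seen.

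Aim2, the sensor of cytosolic double-stranded DNA, and Nek7, the kinase that bridges NLRP3 subunits, did not pass in any comparison. Aim2 ranged from 22.8 to 34.9 CPM over all 12 libraries, with iBET log2 differences of 0.16 (SE 0.14, adjusted p 0.403) with Ova and 0.21 (SE 0.14, adjusted p 0.261) with IC. In limma voom with sample weights both passed (adjusted p 0.0348 and 0.0373), the lowest over the 26 alternatives, whose highest were 0.939 and 0.613. Nek7 ranged from 127 to 166 CPM, with iBET log2 differences of 0.09 (SE 0.12, adjusted p 0.589) with Ova and 0.17 (SE 0.12, adjusted p 0.275) with IC. Leaving out the thin library, the Ova values were 0.22 for Aim2 and -0.04 for Nek7, so the Nek7 difference changed sign, and the IC values in DMSO were -0.11 and -0.19, against -0.18 and -0.08 with it. Nek7 lies at chr1:138482875-138620141 (minus strand) and Aim2 at chr1:173350879-173466040 (plus strand). An exon of Gm28501 overlaps Nek7 on the opposite strand, and since the use of strand in counting was not given in the sources used here, their reads cannot be told apart.

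Pycard (chr7:127989708-127993867, minus strand) encodes the adaptor ASC, which only some of these sensors need to reach caspase-1. It was at 13.4, 26.8 and 24.0 CPM in DMSO Ova, where the first value rests on 26 counts in the thin library, and at 22.5, 24.4 and 28.6 CPM in DMSO IC. With iBET it was at 12.5, 14.1 and 21.2 CPM with Ova and at 13.2, 9.88 and 8.75 CPM with IC. The IC groups did not overlap whereas the Ova groups did. Pycard fell with iBET in IC in 3 of 3 mice (log2 fold change -1.23, SE 0.25, adjusted p 0.00255). That call did not survive the omission of mouse B (adjusted p 0.0640). The IC difference in DMSO was 0.17 (SE 0.25, adjusted p 0.905), and -0.04 without the thin library. With Ova the difference was -0.49 (SE 0.25, adjusted p 0.161), and without the thin library -0.73 (adjusted p 0.0316). The difference of the 2 iBET effects, -0.73 (SE 0.36), had an unadjusted p of 0.0617 and an adjusted p of 1.00. An exon of Gm45205 overlaps Pycard on the opposite strand.

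Casp1 and Casp4 lie next to each other on chromosome 9, at chr9:5298517-5307265 and chr9:5308828-5336783 on the plus strand. Casp1 was at 68.3, 77.7 and 75.4 CPM in DMSO Ova and at 57.7, 55.7 and 58.8 CPM in iBET Ova. With IC it was at 63.1, 64.0 and 72.2 CPM in DMSO and at 56.6, 56.9 and 58.0 CPM in iBET. The iBET libraries were lower without overlap under both stimuli, by a small amount. With Ova Casp1 fell by 0.37 on the log2 scale (SE 0.09, adjusted p 0.00783), and the call did not survive the omission of mouse B (adjusted p 0.200) or of mouse C (0.0844). Without the thin library it was -0.46 (adjusted p 0.00343), and the IC difference in DMSO, -0.16 with all libraries, was -0.23. With IC the difference was -0.22 (SE 0.09, adjusted p 0.0754). Among the alternatives for that difference the adjusted p ran from 0.0304 to 0.392, with 5 of 26 below the threshold.

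Casp4 and Nlrp3 had the largest IC differences of the 10 genes in DMSO. Casp4 was at 8.73, 8.51 and 10.9 CPM in DMSO Ova and at 22.0, 13.9 and 17.3 CPM in DMSO IC, without overlap. With iBET it was at 5.71, 7.83 and 8.12 CPM with Ova and at 10.9, 9.69 and 10.4 CPM with IC, again without overlap. The IC log2 difference in DMSO was 0.91 (SE 0.20) and had 1 direction in 3 of 3 mice, but missed the threshold (adjusted p 0.0547). Blocked by mouse, the fit called it (adjusted p 0.0323), and over the 26 alternatives the adjusted p ran from 0.00659 to 0.644. Without the thin library it was 0.85 (adjusted p 0.0983). In iBET the IC difference was 0.53 (SE 0.20, adjusted p 0.532). iBET lowered Casp4 in IC by 0.78 on the log2 scale in 3 of 3 mice (SE 0.19, adjusted p 0.00770), and omission of mouse C ended that call (adjusted p 0.0597). With Ova the iBET difference was -0.40 (SE 0.21, adjusted p 0.167), and -0.48 (adjusted p 0.122) without the thin library.

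The region before the Casp4 start, chr9:5308599-5308827 on the plus strand (GRCm38.p6, RefSeq), is shown because it alone among the 9 genes with a window held the κB-like motif. The match, in capitals, lies 92 bases before 1 RefSeq start of Casp4 and 103 before another. It is thus in 2 of the 12 windows of these genes, where 1.2% of all promoter windows hold the motif on either strand. The Casp1 window held CACGTG, which 7.15% of all windows hold, and no window of the 9 genes held the interferon-response core, which 3.44% hold. A match is a description of the letters and not of binding.

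Casp4: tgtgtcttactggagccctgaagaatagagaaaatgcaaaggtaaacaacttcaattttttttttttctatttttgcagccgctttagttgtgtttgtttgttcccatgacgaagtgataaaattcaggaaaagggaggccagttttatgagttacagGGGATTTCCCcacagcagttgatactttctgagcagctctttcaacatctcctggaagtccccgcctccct

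Gsdmd (chr15:75862327-75867408, plus strand), the substrate whose cleaved end forms the pores of pyroptosis, was at 52.4, 51.8 and 55.5 CPM in DMSO Ova and at 52.6, 53.0 and 56.6 CPM in DMSO IC. With iBET it was at 32.2, 29.997 and 34.9 CPM with Ova and at 38.3, 40.1 and 36.1 CPM with IC. Both iBET groups lay below both DMSO groups with little spread within a group. Gsdmd fell by 0.72 on the log2 scale with Ova (SE 0.10, adjusted p 0.000138) and by 0.50 with IC (SE 0.09, adjusted p 0.00127), and without the thin library by 0.78 with Ova. IC made a log2 difference of 0.02 in DMSO (SE 0.09, adjusted p 0.984) and of 0.24 in iBET (SE 0.09, adjusted p 0.558). The DMSO value was -0.01 without the thin library.

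**Figure D2:**
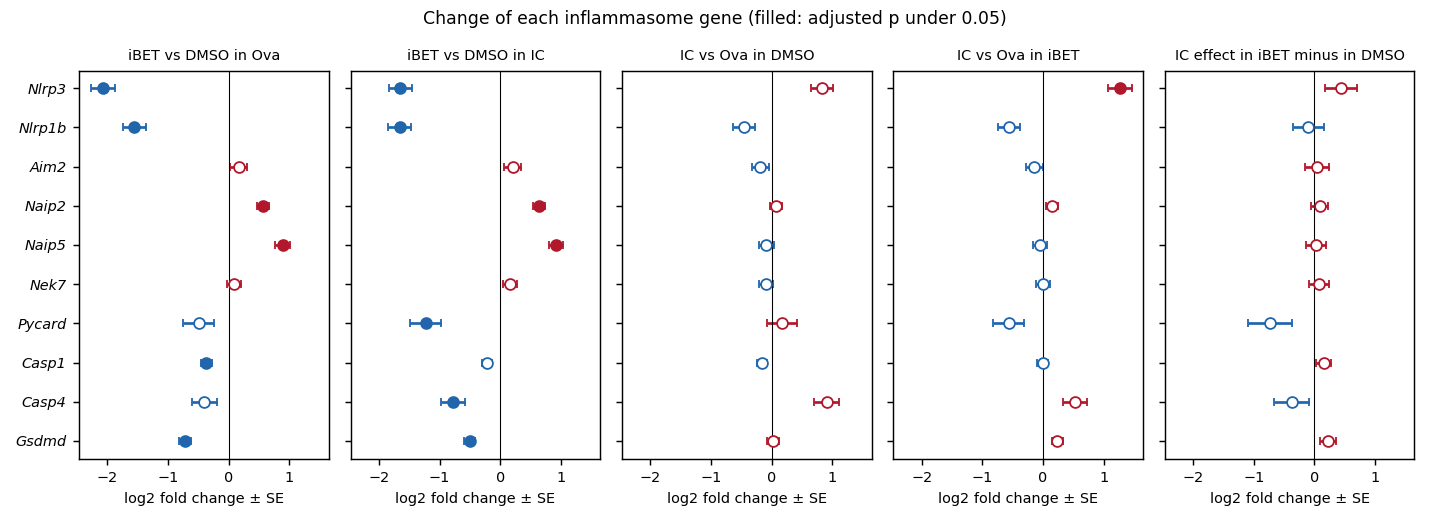
Log2 fold change (horizontal axes, bars SE) of the 10 genes in the 4 comparisons and in the difference of the IC effects, from 1 edgeR fit to 12 libraries, with filled points for an adjusted p under 0.05. The iBET panels hold 6 and 7 filled points on both sides of 0, the IC panels none in DMSO and 1 in iBET (Nlrp3), and the last panel none.

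Counted by whether the 3 libraries of one group overlapped the 3 of the other, 7 of the 10 genes were apart in the iBET comparison with Ova and 9 with IC, where 45.1% and 48.6% of all genes were. In the IC comparison 3 were apart in DMSO and 5 in iBET, where 15.3% and 18.9% of all genes were. At an unadjusted p under 0.05, 3 genes differed with IC in DMSO and 5 in iBET, where 11.7% and 7.50% of all genes did. DESeq2 called 2 and 1, where it called 2.36% and 1.12% of the genes to which it gave an adjusted p. For the difference of the IC effects, edgeR called 0 of the 10 and 0% of all genes, none of the 10 had an unadjusted p under 0.05 (2.55% of all genes did), and DESeq2 also called 0 of the 10 (0.0239% of genes with an adjusted p).

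To set genes against each other, levels were also expressed per kilobase of exon (RPKM). On this scale Casp1 was highest in all 4 groups, at 49.3 RPKM ± 3.27 (SD, n = 3) in DMSO Ova, 38.3 ± 1.05 in iBET Ova, 44.4 ± 3.32 in DMSO IC and 38.2 ± 0.505 in iBET IC, and its libraries never overlapped those of the next gene. In DMSO Ova, Gsdmd (22.4 RPKM), Nek7 (19.6), Naip2 (17.2) and Nlrp3 (17.1) followed. Of these, Gsdmd stood apart, while Naip2 overlapped both Nek7 above and Nlrp3 below. Aim2 came next at 8.51 RPKM, and Nlrp1b (5.86), Pycard (5.63) and Naip5 (5.20) overlapped one another. Casp4 was lowest at 2.52 RPKM.

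The order shifted with treatment. From rank 5 of 10 in DMSO Ova, Nlrp3 stood at rank 2 in DMSO IC (30.6 RPKM, apart from Casp1 above and Gsdmd below), at rank 8 in iBET Ova (4.08, overlapping Pycard) and at rank 5 in iBET IC (9.82, overlapping Naip5). Naip2 was at rank 2 in both iBET groups (25.3 and 28.2 RPKM, apart from its neighbours). Nlrp1b was lowest in DMSO IC (4.32 RPKM, overlapping Casp4) and in iBET IC (1.35, apart). These ranks use the union of exons, and parts of the order depend on that choice. Casp4 has a union of 3710 bases and a principal transcript of 1435, and with the latter it was at 6.53 RPKM in DMSO Ova and 12.4 in DMSO IC, ranks 8 and 6. With principal transcripts Casp1 was still highest in all 4 groups and Nlrp3 at rank 2 in DMSO IC, though it then overlapped Gsdmd (30.9 and 30.2 RPKM). Naip2 was then at rank 3 in both iBET groups, overlapping Nek7 above it (25.5 and 29.4 RPKM with Ova, 28.4 and 29.3 with IC). The lowest gene was then Naip5 in DMSO Ova and DMSO IC (5.20 and 5.00 RPKM) and Nlrp1b in iBET Ova and iBET IC (3.09 and 2.06).

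**Figure D3:**
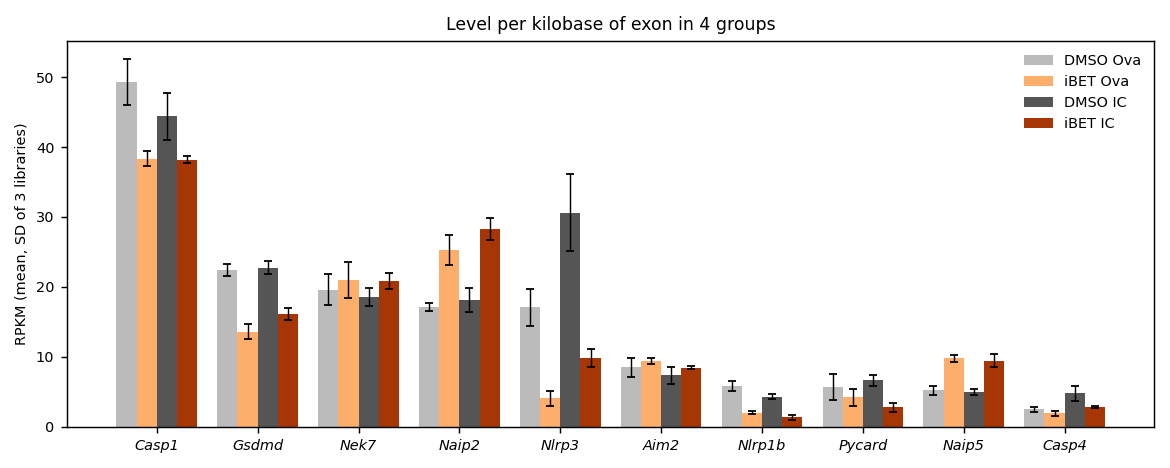
RPKM (vertical axis, from 0; union exon length) of the 10 genes, ordered by level in DMSO Ova, with bars for the mean and error bars for the SD of 3 libraries in each of the 4 groups. Casp1 is highest in all groups, and Nlrp3 is at rank 2 in DMSO IC at 30.6 RPKM but at 4.08 in iBET Ova.

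The wider pathway was followed in 5 lists that hold 55 further genes, 47 of which could be tested. With iBET, 24 of the 47 passed with Ova (7 higher, 17 lower, median log2 fold change -0.28) and 26 with IC (7 higher, 19 lower, median -0.41), beside the 31.3% and 34.8% of all genes and medians of 0.02 and -0.0037 over all genes. With IC, 3 of the 47 passed in DMSO and 3 in iBET, beside 1.22% and 0.349% of all genes. The counts of the single lists are to be read against the same shares. Blocked by mouse, the fit called 26 with Ova and 28 with IC, the added calls being Zbp1 (adjusted p 0.0101) and Pydc4 (0.0413) with Ova and Naip6 (0.0298) and Serpinb1a (0.0461) with IC, and made no difference to the calls of the others. Leaving out the thin library, 23 passed with Ova, since Naip6 and Ripk3 were lost and Pydc4 (adjusted p 0.0106) was gained, and the calls with IC in DMSO were the same 3. None passed for the difference of the IC effects in edgeR, where 1 had an unadjusted p under 0.05. DESeq2 called 1, Il1rn, the IL-1 receptor antagonist, at a log2 difference of -0.89 (adjusted p 0.0447).

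Among 11 other sensors tested, 6 passed with iBET in Ova (Naip6 higher, with Mefv, Nlrp1a, Nlrp1c-ps, Nlrc4 and Nlrp10 lower; median log2 fold change -0.45) and 5 in IC, all lower (Mefv, Nlrp1a, Nlrp1c-ps, Nlrc4 and Zbp1; median -0.64). Mefv, which encodes the sensor pyrin, was the extreme but a rare transcript. It had 6, 28 and 20 counts in DMSO Ova, 0, 4 and 0 in iBET Ova, 55, 34 and 36 in DMSO IC, and 11, 6 and 2 in iBET IC. Its mean level went from 2.30 to 0.147 CPM with Ova (adjusted p 0.00144) and from 3.93 to 0.469 CPM with IC (adjusted p 0.000687). The Zbp1 call was lost in 3 of 12 fits without 1 library (up to 0.0989, without iBET IC of mouse B). No sensor of this list passed with IC against Ova in DESeq2 or in edgeR, where 2 in each treatment had an unadjusted p under 0.05.

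Caspases and death genes outside the canonical inflammasome were split in direction. Of 10 tested, 7 passed with iBET in Ova (4 higher, 3 lower) and 7 in IC (5 higher, 2 lower), and the medians were 0.23 and 0.35. Ripk3, the kinase of necroptosis, rose from 26.9 to 52.1 mean CPM with Ova (log2 fold change 0.91, adjusted p 0.0138, and 0.0613 without the thin library) and from 27.8 to 55.0 with IC (0.99, adjusted p 0.00710). Casp8, the initiator caspase that restrains necroptosis, fell from 108 to 67.6 mean CPM with Ova (-0.68, adjusted p 0.000210) and from 97.9 to 64.8 with IC (-0.60, adjusted p 0.000419). Dfna5 (Gsdme), another gasdermin, fell with Ova (-0.83, adjusted p 0.0213), a call lost in 4 of 12 fits without 1 library (up to 0.105, without DMSO Ova of mouse B). Ripk1 and Ninj1 were higher and Mlkl lower under both stimuli, and Casp6 was higher in IC. Exons of Gm17084 overlap those of Ripk1 on the same strand, and exons of Serpinb6a do so on the opposite strand. Fits without 1 library lost the Ninj1 call in 1 of 12 with Ova (0.0572 without DMSO Ova of mouse C) and 4 of 12 with IC (up to 0.118, without iBET IC of mouse A), and the Mlkl call with Ova in 4 of 12 (up to 0.119, without iBET Ova of mouse B). None of the 10 passed with IC against Ova in DESeq2 or in edgeR, where 4 in DMSO and 0 in iBET had an unadjusted p under 0.05.

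Transcripts of Il1b and Il18, whose products caspase-1 matures, and of Il1a were scarce in these cultures. Il1b had 1, 5 and 6 counts in DMSO Ova, 4, 0 and 1 in iBET Ova, 23, 16 and 14 in DMSO IC, and 25, 16 and 10 in iBET IC. Its IC libraries lay above its Ova libraries in both treatments. An exon of Il1bos overlaps Il1b on the opposite strand. Il1b rose with IC in iBET, from 0.140 to 1.36 mean CPM (adjusted p 0.0346), a call that 8 of 12 fits without 1 library lost (up to 0.155, without iBET Ova of mouse C). Il18 lay between 2.13 and 7.70 CPM and passed in no comparison. Il1a had 37 counts in all 12 libraries together and was not tested.

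Of 12 genes that promote assembly or license it, 6 passed with iBET in Ova (2 higher, 4 lower, median -0.30) and 7 in IC (2 higher, 5 lower, median -0.38). Gm12250 (Irgb10), a GTPase that helps to open bacteria to cytosolic sensing, fell from 10.0 to 2.24 mean CPM with Ova (log2 fold change -2.22, adjusted p 3.88e-05) and from 11.6 to 2.99 with IC (-1.97, adjusted p 5.10e-05). Kcnk6, a potassium channel linked to the efflux that NLRP3 senses, fell from 49.7 to 27.9 mean CPM with Ova (-0.84, adjusted p 2.40e-05). It was also lower with IC, at 45.8 mean CPM in DMSO and 26.6 in iBET, a difference that DESeq2 called. P2rx7, the ATP-gated channel, and Syk were lower under both stimuli, and Gbp5 fell in IC (-1.63, adjusted p 0.00558), at 3.47 and 1.05 mean CPM. An exon of Mir8115 overlaps P2rx7 on the same strand. Irf8 was higher under both stimuli, with the IC call lost in 3 of 12 fits without 1 library (up to 0.0846, without iBET IC of mouse B). Txnip, proposed as a redox-sensitive ligand of NLRP3, was the only one of the 12 to pass with IC against Ova. It was lower with IC, at 221 against 411 mean CPM in DMSO (-0.90, adjusted p 0.00464) and 551 against 1102 in iBET (adjusted p 0.00380), and higher with iBET (1.42 and 1.32). An exon of Gm15441 overlaps it on the opposite strand.

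All calls in the list of inhibitors were downward with iBET, 5 of 12 with Ova (median -0.42) and 7 with IC (median -0.70). That list was drawn broadly, and not each gene in it is an established inhibitor of assembly. It holds a partner of pyrin (Pstpip1) and the IL-1 receptor antagonist (Il1rn). Pstpip1, a binding partner of pyrin, was at 248, 103 and 90.2 CPM in DMSO Ova and at 29.0, 29.4 and 31.5 CPM in iBET Ova. With IC it was at 172, 95.1 and 86.1 CPM in DMSO and at 23.7, 23.6 and 23.6 CPM in iBET. Its level in mouse A was above that of the other mice in DMSO, and every iBET library lay below every DMSO library (log2 fold changes -2.26, adjusted p 0.000938, and -2.32, adjusted p 0.000665). Nlrc3 (-1.25 with Ova, adjusted p 0.00106), the PYD-only proteins Pydc3 (-1.51 with IC, adjusted p 0.00117) and Pydc4 (-1.55 with IC, adjusted p 0.00422), and Dpp9, the protease that holds NLRP1 in check, were among the others. Pydc3 also passed with Ova (-1.09, adjusted p 0.0127), a call lost in 1 of 12 fits without 1 library. DESeq2 called Nlrc3 with IC too. Tnfaip3, which edits ubiquitin chains, was lower with iBET under both stimuli (-0.56 and -0.42) and higher with IC in both treatments (1.34 and 1.48). Its lower call in IC was lost in 2 of 12 fits that each left out 1 library (up to 0.0745, without iBET IC of mouse C). Il1rn rose with IC in DMSO (0.86, adjusted p 0.00576) and was lower with iBET in IC (-1.04, adjusted p 7.14e-05).

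**Figure D4:**
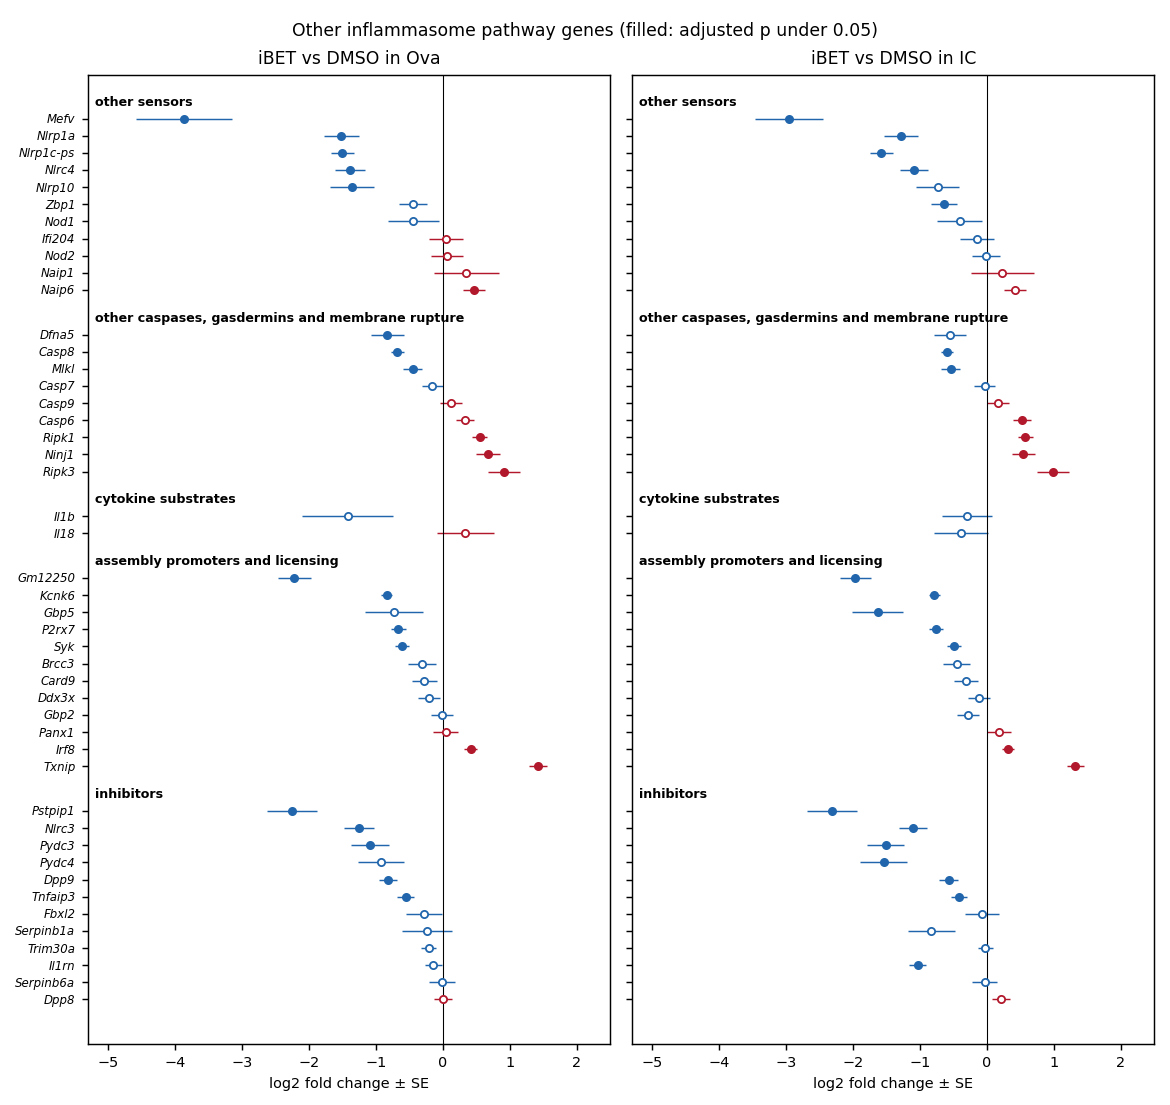
Log2 fold change with iBET (horizontal axes, bars SE) of 46 of the 47 further pathway genes tested, grouped by list, with Ova on the left and with IC on the right, and with filled points for an adjusted p under 0.05. The 12 genes in the list of inhibitors hold 5 and 7 filled points, all below 0, whereas the list of caspases and death genes has filled points on both sides.

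Of the 8 pathway genes that could not be tested, Il1a had the most counts, and Nlrp6, Nlrp12, Casp12, Gsdma, Ifi202b and Trim31 had 1 to 3 each in all 12 libraries. Gsdmc had 0.

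As a description of pattern, the genes most like the 3 members with the largest changes were found by the Pearson correlation of log2 CPM over the 12 libraries, which share mice, treatments and depth. For Nlrp3 they were Lpar1 (r 0.98), Mcm3ap (0.98) and Traf1 (0.98). For Nlrp1b they were Nfatc2 (0.98), Prkag2 (0.97) and Gpr183 (0.97). For Pycard they were Gne (0.94), Xntrpc (0.93) and Uevld (0.92).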

How the data were processed

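The authors deposited 2 tables for 12 RNA-seq libraries of BMDMs, with columns matched to samples by the titles. The first holds gene counts, which the authors made from reads demultiplexed with CASAVA, checked with FastQC, trimmed with Trim Galore, aligned to mm10 with HISAT2 and assigned with featureCounts. The kit was stranded per the study's methods, but annotation, strand setting and versions are not given in the sources used here. The other deposited table is a normalized signal, which equalled the counts divided by a constant for each library (largest relative gap 5.22e-15). Whether these constants are DESeq2 size factors was not checked.

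The counts were fitted in R 4.3.3 with edgeR 4.0.16: filterByExpr at its defaults (minimum count 10), TMM, and 1 robust quasi-likelihood fit with 1 term per group. The 4 contrasts and their interaction were tested two-sided, with Benjamini-Hochberg adjustment over all 11468 genes and calls at an adjusted p under 0.05. The code was tested on simulated data. SE is the absolute log2 fold change over the square root of F. Precision rests on 3 mice per group and on depth, which was 7.55 M to 17.4 M counts per library, or 1.77 M to 16.9 M outside Rn45s.

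The labels give each library's mouse, which pairs libraries across groups. Deviations from group means correlated at -0.07 to 0.54 (median 0.26) in 18 same-mouse pairs and at a median of -0.13 in 36 others. Mouse as a block was an alternative, as were DESeq2 1.42.0 with and without the block, its size factors in edgeR, other filters (none, or 10 counts in every library), 1 surrogate variable (sva 3.50.0), the compared groups alone, the normalized signal in limma 3.58.1 with a pseudocount of 1, removal of Rn45s, voom with sample weights, and omission of each library or mouse. Principal-transcript length for RPKM was added after seeing the data.

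Genes were named by a rule: all 10 members, up to 3 called genes with the largest change per pathway list and contrast, and the 3 genes most correlated with each of the 3 most changed members. Others named beside a count of a list were chosen after their values were seen. A pathway gene is in the counts but its own values are not reported here. Members and lists were chosen with earlier results of these data known. Gene positions and exon lengths come from GENCODE vM21 (GRCm38) and promoter windows (250 bases before to 50 after a start, less exon bases where printed) from RefSeq on GRCm38.p6. Gsdmd had no window in that table.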

Additional observations from a re-analysis of the deposited data

How the results depend on the processing

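For the 10 genes, iBET calls numbered 6 to 8 with Ova and 7 to 9 with IC over the alternatives that kept all libraries, and 5 to 7 and 6 to 8 when a library or a mouse was left out. The IC comparison in DMSO was the least settled: 0 of the 10 were called as reported, 2 (Nlrp3 and Casp4) with the replicate block in edgeR, in DESeq2, in DESeq2 with the replicate block, without a filter on low counts and in voom with sample weights, and 1 with DESeq2 size factors or with at least 10 counts in every library. Leaving out libraries or mice gave 0 to 1 there, and 0 to 2 in iBET, where 1 was reported. The replicate block in edgeR changed no other call among the 10 and added 4 among pathway genes with iBET. Pathway calls with IC in DMSO, 3 as reported, were 1 with the compared groups alone, 6 in voom and 0 to 4 with omissions, and in iBET 0 to 3 with omissions. Pathway calls with iBET, 24 with Ova and 26 with IC, ran from 12 to 26 and from 15 to 29 with omissions, lowest without mouse B. For the difference of the IC effects 0 pathway genes were called as reported and 1 in DESeq2 with or without the replicate block.

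Of 1290 values under alternatives, 51 had the opposite sign, 26 passed where the reported value did not and 8 the reverse. All values of opposite sign were close to 0 and uncalled. For Casp1 with IC in iBET they were 0.00061 (DESeq2 with the replicate block), 0.00035 (DESeq2 size factors), 0.0047 (no filter), 0.0055 (groups alone), 0.0015 (normalized signal), 0.0067 (without Rn45s) and 0.0098 (voom). For Nek7 in that comparison they were 0.0012 (DESeq2), 0.0048 (with the replicate block), 0.00097 (DESeq2 size factors), 0.0052 (no filter), 0.00082 (10 counts in every library), 0.0071 (groups alone), 0.0076 (normalized signal) and 0.0080 (without Rn45s). Without single libraries, values in comparisons that crossed 0 ran with IC in iBET from -0.028 to 0.011 for Casp1, -0.104 to 0.051 for Nek7 and -0.110 to 0.021 for Naip5, with IC in DMSO from -0.036 to 0.35 for Pycard and -0.013 to 0.055 for Gsdmd, and with iBET in Ova from -0.038 to 0.19 for Nek7. For the difference of the IC effects they ran from -0.039 to 0.18 for Aim2, -0.027 to 0.137 for Naip5, -0.223 to 0.081 for Nlrp1b and -0.020 to 0.190 for Nek7. Without mouse A the values of opposite sign were, with IC in iBET, 0.031 for Casp1, 0.067 for Naip5 and 0.039 for Nek7, and -0.072 for Nek7 with iBET in Ova. Without mouse B they were 0.082 for Nek7 with IC in iBET and, for the difference, -0.00020 for Naip2 and -0.106 for Naip5. Without mouse C they were 0.00062 for Casp1 with IC in iBET, -0.0047 for Naip2 with IC in DMSO and, for the difference, 0.032 for Nlrp1b and -0.030 for Nek7. The cause of these changes was not tested. Low counts limit the values of Mefv and Il1b and those that rest on the DMSO Ova library of mouse A, and 8 pathway genes had too few counts to be tested.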

Other observations

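As shares of the summed CPM of the 10 genes, which depend on transcript length as well as on level, Nek7 held 26.3% ± 1.48 (SD, n = 3) in DMSO Ova and 30.7% ± 3.26 in iBET Ova, and Naip2 held 15.2% ± 0.856 and 24.4% ± 1.40. Nlrp3 held 12.6% ± 1.44 in DMSO Ova, 3.30% ± 0.916 in iBET Ova, 20.9% ± 2.35 in DMSO IC and 7.44% ± 0.921 in iBET IC.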
